A study of Mus musculus with 4 samples.

Results

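Wild-type (WT) NKT cells of C57BL/6 mice are described here by the DNA that an antibody against 5-methylcytosine pulled down (MeDIP), set against DNA from WT cells that was not pulled down (input). The cells were thymocytes sorted fresh by CD1 tetramer binding, and their DNA was sonicated to fragments with a median length of 180 to 230 bp. There was 1 MeDIP library and 1 input library of WT cells among 4 libraries in all, the other two being from PLZFon mice and used only where named. The age, sex and number of animals behind a library are not given in the sources used here. A label names the antibody for the library titled WT input as well and none for that titled PLZFon MeDIP, so the labels conflict with the titles, and the titles were followed. All 1048575 windows of 100 bp in the deposited table were members, of 1048575 in the table, and they cover chromosomes 1 to 7 (mm10), the last of these as far as position 139972600. Listed windows held at least 10 reads over the WT and PLZFon MeDIP libraries together and a CpG factor, the authors' score of CpG content, of at least 1. A window that is not listed is therefore not a window without reads, and the selection raises MeDIP levels. These DNA libraries give no marker expression, so the identity of the sorted cells was not checked.

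Most methylation of mammalian DNA sits on cytosines of CpG dinucleotides, and in somatic cells most CpG outside CpG islands are methylated. CpG islands, the CpG-rich stretches at many gene starts, are mostly free of methylation. Among the known exceptions are promoters of germline genes, which are methylated in somatic cells, and imprinted control regions, which are methylated on the copy from 1 parent only. NKT cells are T cells with an invariant receptor that recognises lipids on CD1d, and they mature in the thymus.

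Promoters show the listed and the unlisted side at the level of sequence: 3 CpG-rich germline promoters with listed windows, 1 germline promoter without, and 1 housekeeping promoter without. The stretches below are 300 bp of the mouse genome from 250 bp before to 50 bp after a gene start, from RefSeq (build GRCm38.p6), 5′ to 3′ on the strand of the gene, with each CG in capitals. Fkbp6 encodes a co-chaperone needed in male meiosis, and its promoter (chr5:135349864-135350163, minus strand) had 32 CpG and 4 listed windows. Sycp1 encodes a protein of the synaptonemal complex of meiotic chromosomes, and its promoter (chr3:102936051-102936350, minus strand) had 21 CpG and 3 listed windows. Sycp1 was chosen after its values were seen. Fkbp6 and Stk31, a testis kinase gene (chr6:49395289-49395588, plus strand, 29 CpG, 2 listed windows), are the germline genes whose listed promoters had the most CpG. Tdrd5 encodes a germ cell protein of the piRNA pathway, and its promoter (chr1:156303299-156303598, minus strand) had 48 CpG and no listed window. Rps19 encodes a protein of the small ribosomal subunit, and the promoter shown (chr7:24884663-24884962, plus strand) had 39 CpG and no listed window.
Fkbp6: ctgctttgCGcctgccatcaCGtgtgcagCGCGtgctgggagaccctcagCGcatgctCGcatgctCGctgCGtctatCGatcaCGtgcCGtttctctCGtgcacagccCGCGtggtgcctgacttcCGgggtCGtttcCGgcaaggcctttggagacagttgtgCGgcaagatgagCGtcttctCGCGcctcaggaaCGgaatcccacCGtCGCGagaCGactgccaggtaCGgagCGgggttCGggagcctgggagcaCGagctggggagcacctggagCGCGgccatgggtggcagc
Sycp1: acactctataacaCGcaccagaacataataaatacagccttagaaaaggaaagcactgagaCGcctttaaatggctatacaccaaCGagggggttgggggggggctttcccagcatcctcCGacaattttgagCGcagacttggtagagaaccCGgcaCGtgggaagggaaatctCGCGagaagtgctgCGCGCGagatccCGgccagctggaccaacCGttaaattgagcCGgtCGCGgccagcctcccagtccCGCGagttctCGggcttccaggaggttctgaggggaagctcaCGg
Stk31: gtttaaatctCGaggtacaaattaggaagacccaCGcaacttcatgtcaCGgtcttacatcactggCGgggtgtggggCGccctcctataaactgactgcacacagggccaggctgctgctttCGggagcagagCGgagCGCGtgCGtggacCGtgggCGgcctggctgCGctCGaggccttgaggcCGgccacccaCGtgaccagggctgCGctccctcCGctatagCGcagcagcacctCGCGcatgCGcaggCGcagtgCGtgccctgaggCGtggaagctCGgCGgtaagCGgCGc
Tdrd5: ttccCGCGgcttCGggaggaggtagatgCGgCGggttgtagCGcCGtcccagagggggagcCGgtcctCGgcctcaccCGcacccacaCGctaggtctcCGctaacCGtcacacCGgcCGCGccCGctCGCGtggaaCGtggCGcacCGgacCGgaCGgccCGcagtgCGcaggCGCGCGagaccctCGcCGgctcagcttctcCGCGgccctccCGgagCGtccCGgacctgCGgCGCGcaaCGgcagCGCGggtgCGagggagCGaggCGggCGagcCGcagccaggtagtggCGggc
Rps19: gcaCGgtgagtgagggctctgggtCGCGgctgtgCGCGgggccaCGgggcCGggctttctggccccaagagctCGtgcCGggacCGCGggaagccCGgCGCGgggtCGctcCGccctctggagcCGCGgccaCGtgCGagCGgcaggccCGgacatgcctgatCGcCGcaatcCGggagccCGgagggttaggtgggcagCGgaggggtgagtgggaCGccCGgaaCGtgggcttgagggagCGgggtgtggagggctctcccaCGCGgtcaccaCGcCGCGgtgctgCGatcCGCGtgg

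The listed windows of the Fkbp6 promoter held 5, 6, 9 and 15 WT MeDIP reads beside 8, 11, 11 and 13 input reads. Those of Sycp1 held 13, 20 and 21 MeDIP reads beside 21, 18 and 17 input reads. The input library was 4.01 times as deep as the MeDIP library (60683037 against 15141449 reads), so equal read numbers in a window stand for a MeDIP level of 4.01 times the input. After division by the library totals, MeDIP over input was 3.26 (95% interval 1.18 to 8.78) for Fkbp6 and 3.86 (1.69 to 8.8) for Sycp1. At Stk31, with 4 and 3 MeDIP reads beside 11 and 12 input reads, it was 1.22 (0.0966 to 7.43). The mean CpG factors were 9 at Fkbp6, 6.67 at Sycp1 and 3 at Stk31. All listed windows with a factor of 9, 7 and 3 stood at 9.14, 6.91 and 4.74. A listed promoter is thus not always a strongly enriched one. All intervals here are exact (Clopper-Pearson) and cover counting error only, because there is 1 library of each kind and no test between libraries was possible. Whether PCR copies of a fragment had been removed was not checked, and any that remain are counted as separate reads. Neighbouring windows share reads, about 4 windows to a read, and sums over windows were divided by 4 before an interval was computed. Read numbers and read minimums of loci and bins are also given after this division. Reads of single windows and reads per window are not divided.

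Over all listed windows the WT MeDIP level was 0.859 RPM (reads per window scaled to the library total) and the input level 0.193 RPM, a MeDIP over input of 4.44 (4.43 to 4.44). The median window held 10 MeDIP and 11 input reads. Only 52 windows held 0 WT MeDIP reads, being listed through PLZFon reads alone, and 134 held 0 WT input reads. With TMM factors in place of library totals, which centre most windows on equality, the same ratio was 1.12, so its absolute size rests on the scaling, while ratios between groups of windows do not. Windows with at least 10 PLZFon MeDIP reads, whose listing does not depend on WT reads, stood at 6.41 (6.39 to 6.42; 313536 windows).

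Enrichment rose with CpG content up to a CpG factor of 9 and fell beyond it. From a factor of 1 to a factor of 5, MeDIP over input went from 3.68 (3.67 to 3.69) to 6.19 (6.15 to 6.23). It reached 9.14 (8.9 to 9.38) in the 2142 windows with a factor of 9, where a window held 34.4 MeDIP and 15.1 input reads on average. At 10, 11 and 12 the ratio was 8.11, 6.64 and 6.13. In the 202 windows with a factor of 13 or more it was 2.49 (2.26 to 2.74), below that of windows with a factor of 1. The 76 windows with a factor of 15 or more had 1.35 (1.13 to 1.6), the lowest level of any class of CpG factor given here. The MeDIP level carried the rise, from 0.704 RPM at a factor of 1 to 2.27 at 9, while the input went from 0.191 to 0.248.

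**Figure D1:**
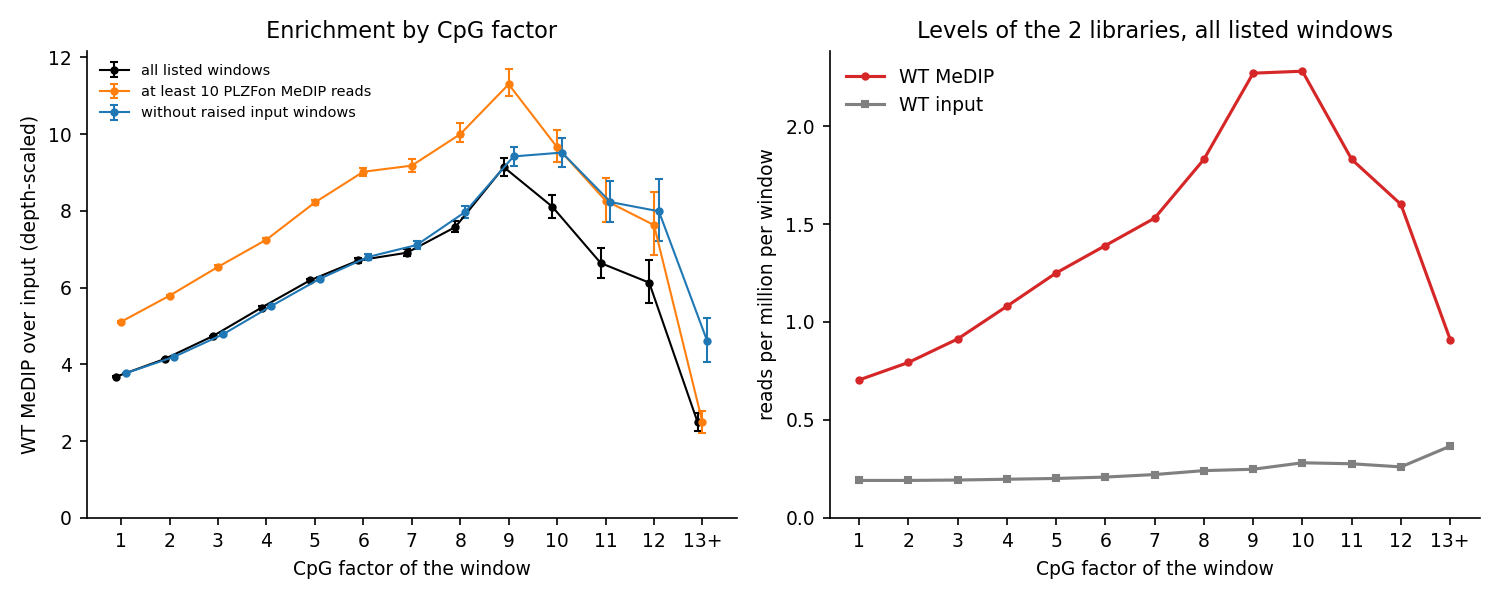
Left, depth-scaled WT MeDIP over input by CpG factor of the window for all listed windows, for windows with at least 10 PLZFon MeDIP reads and for windows without raised input, with points for the ratio of sums and bars for exact 95% intervals (counting error only). Right, the level of each WT library in RPM per window; the MeDIP level climbs to a factor of 9 or 10 and drops to 0.91 at 13 and more, where the input stands at 0.366.

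Part of the drop at high CpG factors moved with the input. A window was called raised in input when it held at least 33 WT input reads, 3 times the median, and there were 5451 such windows. Without them the ratio was 9.42 at a factor of 9 and 9.52 at 10, and it still fell to 4.6 (4.05 to 5.22) at 13 or more and to 2.47 (1.9 to 3.19) at 15 or more. At 13 or more it then stood above the 3.77 of windows with a factor of 1, where with all listed windows it stood below. In windows with at least 10 PLZFon MeDIP reads the rise and the fall were also present, with 5.11 at a factor of 1, 11.3 at 9 and 2.49 at 13 or more. The authors' relative methylation score, which sets a window's signal against its CpG content, had its median at 0.71 for a factor of 1, 0.49 for 7 and 8 and 0.29 for 15 or more.

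Position relative to genes made smaller differences than CpG content. Windows within 1000 bp of the start of a protein-coding gene, 1.4% of the listed windows, stood lowest at 3.82 (3.77 to 3.87). Windows inside protein-coding genes (49.5%) stood at 4.36 (4.35 to 4.37), windows in other annotated genes at 4.33 (4.3 to 4.35) and windows outside genes (40.4%) at 4.57 (4.56 to 4.58). Gene bodies were thus 0.953 times (0.95 to 0.957) and windows near starts 0.835 times (0.824 to 0.846) the intergenic level. Weighting each position to the same mix of CpG factors gave 3.79 near starts, 4.38 in protein-coding genes, 4.33 in other genes and 4.53 outside genes.

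The positions differed little at low CpG content and widely at high CpG content. At a factor of 1, windows near starts had 3.24 (3.16 to 3.32), gene bodies 3.73 (3.71 to 3.74) and intergenic windows 3.68 (3.66 to 3.69), so that gene bodies stood slightly above intergenic windows there. At factors of 7 to 9, windows near starts had 4.93 (4.48 to 5.43; 225 windows), gene bodies 6.48 (6.36 to 6.6) and intergenic windows 8.13 (8.02 to 8.25). Of the windows with factors of 7 to 9, 51.1% were intergenic and 38.8% inside protein-coding genes, against 40.6% and 49.4% at a factor of 1. The 202 windows with a factor of 13 or more were again split 40.1% and 43.6%, with levels of 2.92 (2.53 to 3.36) outside genes and 2.26 (1.93 to 2.65) inside protein-coding genes.

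Along genes, enrichment was lower at the start than in the rest of the gene. The 5178 protein-coding genes of at least 10 kb were divided into 10 equal parts from start to end. MeDIP over input was 3.98 (3.95 to 4.01) in part 1, 4.21 in part 2 and 4.3 in part 3, and it was highest in part 8 at 4.56 (4.52 to 4.59). It was 4.42 (4.39 to 4.46) in the last. The share of windows that were listed rose in the same direction, from 10.2% in part 1 to 13.9% in the last, while input reads per listed window went from 12.4 to 11.

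Around gene starts, the number of listed windows varied far more than their level. Starts were split by the CpG number of their 300 bp promoter into CpG-rich (at least 15; 4488 starts), CpG-poor (at most 5; 3299 starts) and the 1992 between. At CpG-rich starts, 17% of windows from 5.1 to 10.1 kb downstream were listed, 7.09% from 0.6 to 1.1 kb, and 0.579% (26 windows) in the first 100 bp. CpG-poor starts had 5.58% listed between -200 and 0 bp of the start and 12.6% from 100 to 300 bp downstream, and those between had 12.5% and 12.1%. Input reads of unlisted windows were not analysed here, so few methylated fragments and few reads of any kind cannot be told apart there. The deepest trough was thus at CpG-rich starts, and it was also present for windows with at least 10 WT MeDIP reads, with 0.245% in the first 100 bp against 9.55% at 5.1 to 10.1 kb.

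The listed windows at CpG-rich starts, which are kept only when they hold MeDIP reads, had 3.48 (3.26 to 3.72) at -500 to -200 bp and 3.92 (3.33 to 4.62) at -200 to 0 bp. The 26 windows in the first 100 bp had 5.02 (3.67 to 6.89) at a mean CpG factor of 7.46, beside 6.91 for all listed windows with a factor of 7. At CpG-poor starts the windows between -200 and 0 bp had 2.98 (2.73 to 3.25), with a mean factor of 1.73, and the ratio climbed to 4.28 (4.13 to 4.44) at 0.6 to 1.1 kb downstream.

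**Figure D2:**
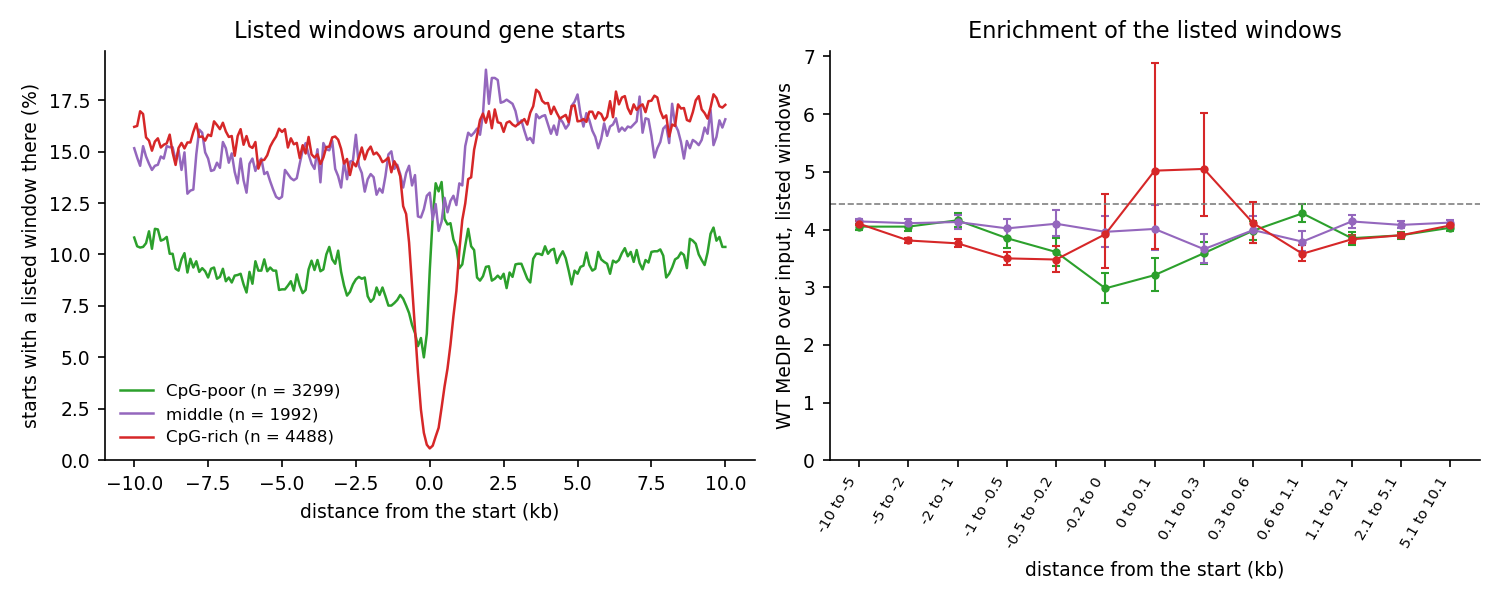
Left, the percentage of protein-coding starts whose window of 100 bp at that distance is listed, by promoter CpG class. Right, depth-scaled WT MeDIP over input of the listed windows by distance, with exact 95% intervals and a dashed line at 4.44, the level of all listed windows; the share falls to 0.579% in the first 100 bp of CpG-rich starts, and the listed windows there have 5.02 (3.67 to 6.89), beside 3.48 at -500 to -200 bp.

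Promoters of intermediate CpG content held listed windows most often. Of 9786 promoters, 10.1% had at least 1 listed window. The share rose from 3.15% of promoters with 0 CpG to 25.7% with 3 to 5 and 29.5% (26.4 to 32.7) with 6 to 8. It then fell to 16.6% with 9 to 11, 7.64% with 12 to 14 and 0.973% (0.603 to 1.48; 21 of 2159) with 26 or more. Only windows with a CpG factor of at least 1 can be listed, which touches the classes with the fewest CpG.

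Listed CpG-rich promoters were more frequent among germline and imprinted genes than among all genes, though most of the 96 genes with one belong to neither list. Of the 3943 genes with a CpG-rich promoter, these 96 (2.43%) had a listed window in one, and 49 (1.24%) had a window with at least 10 WT MeDIP reads. The listed windows of all CpG-rich promoters together stood at 4.05 (3.61 to 4.53), beside 4.44 for all listed windows. Among the germline genes 11 of 14 had a listed window, and 7 of 14 a window with at least 10 WT reads. Imprinted genes had 8 of 14 and 6 of 14. The lists were chosen with earlier results of these data known, so these shares describe the lists and give no independent support. No CpG-rich promoter was listed among 6 housekeeping genes, 12 neuronal genes, 6 T cell and NKT regulators and 4 genes of the DNA methylation machinery.

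The germline genes with a listed CpG-rich promoter act at several steps of germ cell development. Asz1, Mael and Fkbp6 belong to the piRNA pathway, which silences transposons in germ cells. Hormad1 and Sycp1 work on meiotic chromosomes, Sohlh2 is a germ cell transcription factor, Brdt is a bromodomain protein of the testis, Slc25a31 an ADP/ATP carrier of sperm and Tuba3b a testis tubulin, with Stk31 and Tex101 completing the 11. The Sohlh2 promoter held 14.5 MeDIP and 4 input reads per window over 2 windows, and that of Slc25a31 held 14 and 14 in 1 window. At Stk31 the 2 windows held too few WT MeDIP reads to be listed by themselves, so their listing rested mostly on PLZFon reads. Figla, an oocyte transcription factor, Tdrd5 and Tdrkh, a piRNA pathway gene, had none. Reads of Tuba3b may be split with its close copy Tuba3a.

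The imprinted genes with a listed CpG-rich promoter were Gnas, Mcts2, Mest, Mkrn3, Nap1l5, Nnat, Usp29 and Zdbf2. Several of them have more than 1 promoter. Gnas, which encodes the stimulatory G protein alpha subunit and several imprinted transcripts, had 3 listed windows at a promoter with 16 CpG (10.3 MeDIP and 13.3 input reads per window) and none at its promoters with 27, 28 and 40 CpG. Zdbf2 had 3 listed windows at its promoter with 15 CpG and none at that with 38. The promoter of Mcts2, an imprinted retrogene within the intron of H13, held 10 MeDIP and 12.8 input reads per window, a ratio of 3.14 (1.23 to 7.8), and that of H13 itself (21 CpG) was not listed. Blcap, Copg2, Ppp1r9a, Ube3a and Zim1 had no listed CpG-rich promoter either.

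**Figure D3:**
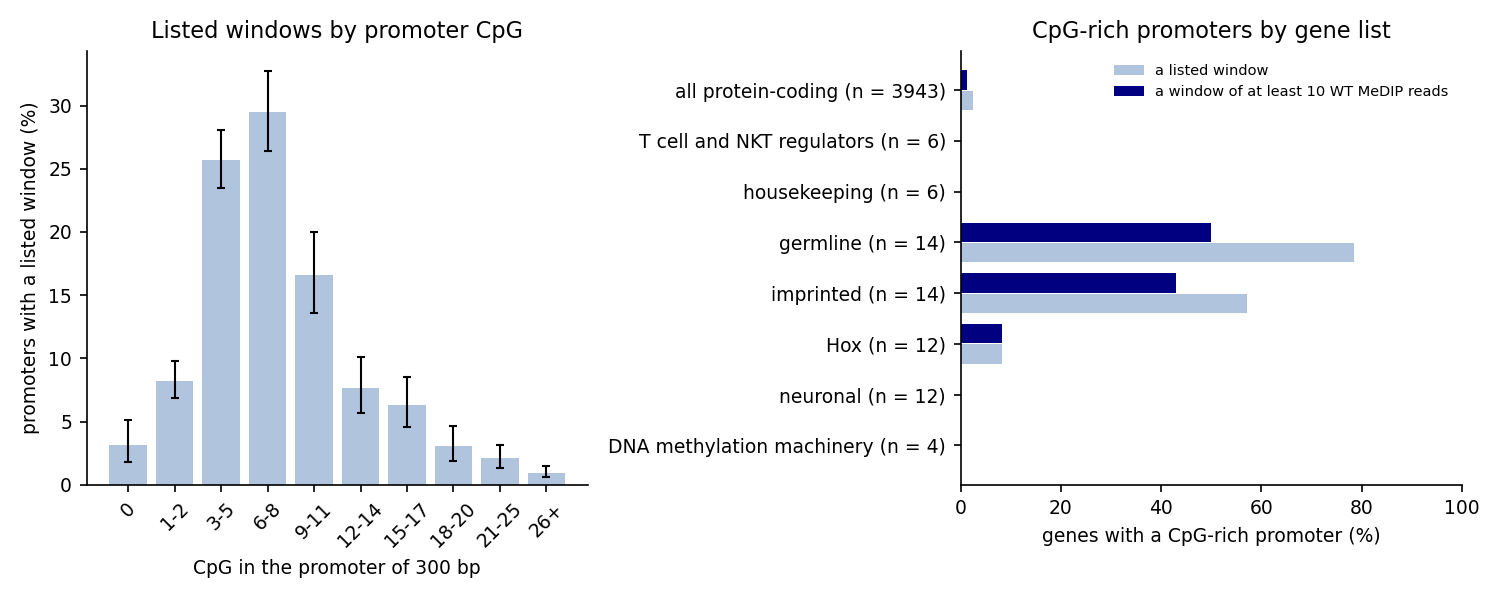
Left, the percentage of promoters of 300 bp with at least 1 listed window by their CpG number, with exact 95% intervals of the share. Right, the percentage of genes with a CpG-rich promoter (at least 15 CpG) that hold a listed window or a window of at least 10 WT MeDIP reads. Gene lists with at least 4 such genes are shown (n in brackets), and the lists were chosen with earlier results of these data known. Germline genes reach 78.6% and imprinted genes 57.1%, beside 2.43% of all.

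Homeobox genes, which pattern the embryo along its axis, had a listed window at a CpG-rich promoter in 1 of 12 genes (8.33%), beside 2.43% of all genes with such a promoter. That gene was Hoxa5. Its promoter of 29 CpG held 27.2 MeDIP and 19.5 input reads per window over 4 windows, a ratio of 5.6 (3.02 to 10.6). Beyond the lists, the highest levels among promoters with at least 20 CpG and 2 listed windows were at Cntln, a centrosome gene (36 against 12.5 reads per window; 11.5, 4.45 to 34.7), and Gm33887 (49.2 against 18.8; 10.5, 6.07 to 19). Henmt1, the enzyme that methylates the ends of piRNAs, had 18 against 15.5 reads per window at a promoter of 31 CpG (4.65, 1.58 to 14.1).

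None of the 8 T cell identity genes with a RefSeq promoter used here had a CpG-rich one. Others of that list, among them Cd2, Cd4, Cd28 and Icos, had no promoter to examine. Over all promoter classes, 2 of 13 T cell and NKT regulators (15.4%) and 2 of 8 T cell identity genes (25%) had a listed window, beside 11.5% of all protein-coding genes (927 of 8034). These were Bach2, a repressor of effector programmes, Stat4, a transducer of interleukin 12 signals, Zap70, a kinase of the T cell receptor, and Lck, the kinase that acts before it. The Bach2 promoter (7 CpG) held 13.7 MeDIP and 6.33 input reads per window over 3 windows, a ratio of 8.65 (2.67 to 33.2). The other three lay between 2.74 and 4.81 with intervals that span over 10-fold, and each of these genes has another promoter that was not listed.

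Over whole loci, the medians of most gene lists were near that of all genes. A locus is a gene with 1000 bp on each side, counted where it had at least 100 reads over both WT libraries. The 5717 such loci, of 9573, had a median of 4.25. Of these, 157 (2.75%) lay at least 1.5-fold above the level of all listed windows with the interval excluding that level, and 341 (5.96%) lay as far below. T cell and NKT regulators had a median of 4.5 over 13 loci, T cell identity genes 3.87 over 6 with none called, imprinted genes 4.37 over 16 with none called, neuronal genes 4.3 over 19 with 0 above and 1 below, and muscle genes 4.29 over 11 with none called. Germline genes had 4.18 over 15 with 1 above and 1 below. Hox genes had 4.63 over 4, housekeeping genes 4.42 over 3 and genes of the DNA methylation machinery 3.52 over 3. Vomeronasal receptors had 5.09 over 19 of 261 genes and olfactory receptors 6.49 over 4 of 588. The read minimum includes MeDIP reads, so a short gene passes it more easily where MeDIP is high. These 2 medians therefore do not stand for the receptor families. Over windows with at least 10 WT MeDIP reads, 94 loci were above and 184 below.

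Among T cell genes, Lef1, a factor of early thymocytes, was the highest regulator at 5.1 (4.59 to 5.67), from 814 MeDIP and 639 input reads, and Cd44, an adhesion receptor of mature NKT cells, followed at 4.8 (3.91 to 5.89). Runx3 had 3.76 (3.32 to 4.26), Tox 4.6 (3.92 to 5.4) and Bach2 4.61 (4.34 to 4.9), and the intervals of Tox and Bach2 include the level of all listed windows. The coreceptor genes Cd4 and Cd8a had 3.04 (2.44 to 3.78) and 4.04 (2.84 to 5.73), and Cd247, the zeta chain of the receptor complex, had 4.93 (4.33 to 5.62). Icos, a costimulatory receptor, was highest of those with 100 reads at 5.44 (3.87 to 7.69). Cd28, with only 43.5 MeDIP and 20.5 input reads, had 8.5 (4.92 to 15.2). The lowest identity genes also rest on few reads, with Cd2 at 2.16 (1.05 to 4.25) and Ctla4 at 2.67 (1.01 to 6.69), as does the regulator Id3 at 3.58 (1.81 to 7.01). Of the Gimap genes, GTPases of lymphocytes, none reached 100 reads, and Gimap4, Gimap8, Gimap1 and Gimap3 had 3.43, 4.79, 5.45 and 6.15.

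Tet2 and Tet3, enzymes that oxidise 5-methylcytosine, differed in level, with 5.49 (4.6 to 6.58) and 3.45 (3.06 to 3.9), and neither was called. Dnmt3b, a de novo methyltransferase, had 3.52 (2.87 to 4.33), and Mbd4 and Gadd45a, with under 100 reads, had 3.51 and 3.93. Rplp0, a ribosomal protein gene, was the only called one of 3 housekeeping loci, at 2.32 (1.53 to 3.47), with Psmb2 and Gusb at 4.42 and 4.66, and Rps9, with few reads, at 2.88 (1.16 to 6.91).

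Germline loci were called on both sides, 1 each of 15 (6.67%), as were vomeronasal receptor loci, 2 each of 19 (10.5%). Hox loci (1 of 4) and olfactory receptor loci (2 of 4) were called above only. All of these are to be read beside 2.75% above and 5.96% below over all loci. In the germline list Sohlh2 was called above at 7.89 (6.07 to 10.3), from 172 MeDIP and 87.5 input reads, and Sycp1 below at 2.79 (2.18 to 3.56). Figla (1.81), Nanog (2.61) and Slc25a31 (5.64) had under 100 reads. Of the imprinted loci Blcap and Peg3 were highest at 5.83 (4.08 to 8.39) and 5.81 (4.63 to 7.31), and Snrpn had 3.1 (2.63 to 3.64) and Ube3a, with few reads, 2.33 (1.28 to 4.13). Hoxa5 was called above at 8.32 (6.92 to 10), and Hoxa6, whose flank overlaps that of Hoxa5, had 4.57 (3.71 to 5.63). Hoxd11 and Hoxa10 had 1.41 (0.536 to 3.32) and 2.44 (1.28 to 4.51) on few reads. The Hoxa3 locus, at 4.7 (4.24 to 5.2), contains that of Hoxa5 and shares its reads. Of 588 olfactory receptor genes only 4 had 100 reads, and Olfr1055 and Olfr550 were called above at 11.6 (8.31 to 16.4) and 7.78 (5.33 to 11.5). Vomeronasal receptors, which sense pheromones, had 19 of 261 with 100 reads, with Vmn2r35 (8.14) and Vmn2r46 (7.79) above and Vmn2r29 (1.91) and Vmn2r62 (2.85) below. With under 100 reads, members of both families reached further to each side, from 1.77 at Olfr607 and 2.15 at Olfr687 to 14.2 at Olfr48 and 15.5 (8.99 to 28) at Olfr156, and from 1.18 at Vmn1r245 and 1.19 at Vmn2r129 to 11.1 at Vmn2r10. These receptor families hold near-identical copies, so the split of reads between members is uncertain.

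In long genes of other tissues the values rest on many reads. Ttn, the giant muscle protein titin, had 3896 MeDIP and 2396 input reads over 935 windows and a ratio of 6.52 (6.19 to 6.86), just short of the 1.5-fold rule. Among neuronal genes Lrrtm4, a synaptic adhesion protein, had 6.32 (5.64 to 7.09), and Grm7, a glutamate receptor, was called below at 2.88 (2.47 to 3.35). These genes span 791 and 922 kb, and their mean CpG factors were 2.57 and 2.28. Lrp1b, with 2184 MeDIP and 1748 input reads, stood between at 5.01 (4.7 to 5.34). Astn1, a gene of neuron migration, had 3.39 (2.93 to 3.91) and Neurod6, a neuronal transcription factor with under 100 reads, 6.94. Of the muscle genes, the acetylcholine receptor genes Chrng and Chrnd were lowest at 2.27 and 3.01 and the cardiac actin gene Actc1, with Chrng under 100 reads, was highest at 6.81 (4.12 to 11.4).

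**Figure D4:**
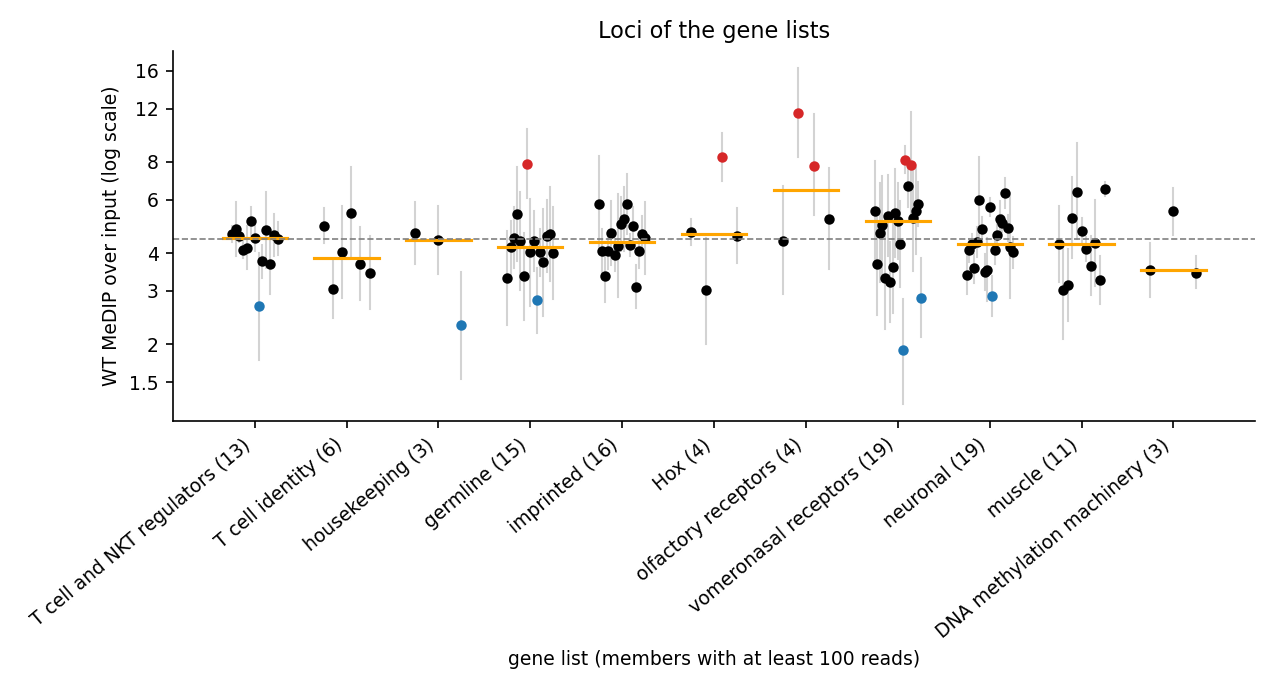
Depth-scaled WT MeDIP over input (log axis) of each locus with at least 100 reads, by gene list, with grey bars for exact 95% intervals, orange lines for list medians and a dashed line at 4.44, the level of all listed windows. Red and blue points are loci called above and below by the 1.5-fold rule; most points are black, and the called ones include Hoxa5 at 8.32 and Rplp0 at 2.32.

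In the highest loci most MeDIP reads lay in windows of at least 10-fold enrichment. This split uses the ratio itself and is a description. Atp6v1h, a subunit of the proton pump that acidifies vesicles, had 1056 MeDIP and 310 input reads, a ratio of 13.6 (12 to 15.5). Of its MeDIP reads, 86.3% lay in 45 windows with at least 10-fold enrichment between positions 5109301 and 5114400 of chromosome 1, and its other windows had 5.43. Pabpc4l had 13.4 (8.47 to 21.8), Gm46731 13.3 (9.61 to 18.7) and D6Wsu163e 11.7 (10.2 to 13.4), followed by Olfr1055, the zinc finger gene Zfp27 (11.2), Mrgprx2 (10.6), Uxs1 (10.4), Zfp68 (10) and D1Pas1 (9.75). In these 10 loci between 66.7% and 91% of MeDIP reads lay in windows of at least 10-fold, and the rest of each locus stood between 2.81 and 6.17. In D6Wsu163e these windows were spread from position 126945901 to 126961000 of chromosome 6, and in Uxs1 from 43777701 to 43797600 of chromosome 1. Uxs1 was the single one of the 10 with raised input, in 17.5% of its windows.

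The lowest loci included many with raised input. Gm2427, A530032D15Rik, C130026I21Rik, Sp140 and Gm38510, between positions 85088139 and 85645040 of chromosome 1, had ratios of 0.767, 0.864, 1.21, 1.36 and 1.47, and at least 87.1% of their windows were raised in input, with 72.2 to 97.6 input reads per window. Pramel40, Gm10354, Ttc34 and Myo3a had 1.36 to 1.45 with 15.5% to 60% of windows raised. Flg, the filaggrin gene of the skin barrier, had no window with raised input and stood at 0.977 (0.722 to 1.3), from 59 MeDIP and 242 input reads over 54 windows. Its mean CpG factor was 6.22, a content at which all listed windows stood at 6.71. The Flg windows held 4.37 WT MeDIP reads on average, fewer than the 10 that listing needs over both MeDIP libraries. Their listing thus rested largely on PLZFon reads, and the low WT level is that of windows selected in this way. The part of raised input in the other values was not tested beyond leaving such windows out.

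At the scale of 1 Mb the WT ratio over listed windows was fairly even, while the number of listed windows per bin ran from 152 to 2928. The evenness is thus that of windows selected by MeDIP reads, not of the DNA of whole bins. Of 1117 bins 1106 had at least 1000 reads, with a median ratio of 4.51 and 5th and 95th percentiles of 3.76 and 5.48. On the log2 scale the bins had an SD of 0.18, of which counting alone would give 0.046, so bins differed by more than counting error. Bins were called when they lay at least 25% above or 20% below the level of all listed windows with an interval excluding it. By this rule 49 bins (4.43%) were above and 34 (3.07%) below. The counts rest on which windows enter, with 19 above and 21 below over windows with at least 10 WT MeDIP reads, and 124 and 32 over windows with at least 10 WT input reads. At a 1.5-fold rule they were 0 and 6. After division by the level that the CpG factors of its windows would give, 24 were above and 26 below.

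Over their listed windows, bins with few genes had the higher ratio. The 119 bins with no protein-coding gene centre stood at 4.89 (4.86 to 4.93), those with 1 to 4 at 4.61, and the 124 with at least 20 at 4.24 (4.22 to 4.25). Of the bins without a gene 12.6% were called above, and of those with at least 20 genes 2.42%. The former held 391 listed windows per bin and the latter 1312. The ratios thus cover unlike shares of the DNA, each selected by MeDIP reads, and methylation of whole bins was not compared. The called bins above had a median of 1 gene and a mean CpG factor of 2.7, against 6 genes and 2.33 in bins not called. Across the 1106 bins of this pair of libraries the log2 ratio had a Pearson r of 0.517 and a Spearman rho of 0.519 with the mean CpG factor, and -0.233 and -0.296 with the gene number.

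**Figure D5:**
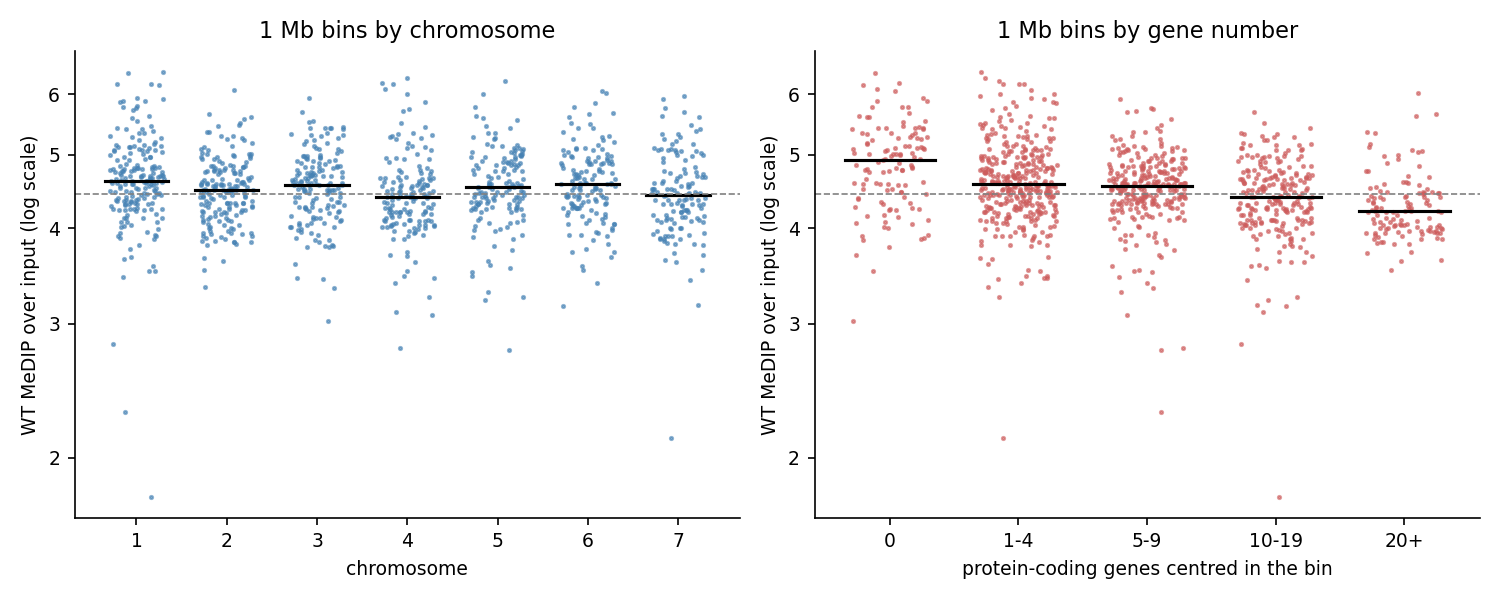
Each point is a 1 Mb bin with at least 1000 reads, by chromosome (left) and by the number of protein-coding genes centred in it (right), with depth-scaled WT MeDIP over input on a log axis, black lines at medians and a dashed line at 4.44. Medians fall from 4.91 in bins without a gene to 4.21 in bins with at least 20, and the lowest bin is at 1.78.

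The 5 highest bins were poor in genes. They were chr1:111000001-112000000 with Dsel (6.42, 5.91 to 6.98), chr1:108000001-109000000 without a protein-coding gene (6.4), chr4:68000001-69000000 with Brinp1 (6.31), chr5:83000001-84000000 with Tecrl (6.25) and chr4:78000001-79000000 with part of Ptprd (6.21). Dsel held 1 of the 272 listed windows of its bin, Brinp1 50 of 246, Tecrl 3 of 367 and Ptprd 43 of 258. These bins held 246 to 367 listed windows each, against a median of 818 over all bins, with 19.7 to 23.1 MeDIP reads per window. Their mean CpG factors of 2.67 to 2.81 were above the 2.34 of all listed windows, and their levels were still 1.32 to 1.37 times those that the CpG factors would give.

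The 5 lowest bins all held windows with raised input. In chr1:85000001-86000000 the ratio was 1.78 (1.74 to 1.82) with 60.8% of windows raised, and 4.21 (4.01 to 4.42) without them. The genes with the most of its windows were Gm38510, Gm7592 and C130026I21Rik, the last of which lies inside the first. In chr1:24000001-25000000, with Col19a1, Lmbrd1 and Fam135a, 33 windows between positions 24611401 and 24616200 held 302 input reads each on average, and the ratio went from 2.3 to 4.75 without them. The bin chr4:146000001-147000000, with the zinc finger genes Zfp993, Zfp981 and Zfp600, went from 2.78 to 3.85. In chr7:59000001-60000000 the ratio was 2.12 (2.05 to 2.2) and was still 2.94 (2.82 to 3.08) without raised windows. Of the 1483 listed windows of this bin, Ube3a held 9 and Snrpn and Snurf 4 each, so nearly all lay outside these genes. The raised windows lay between positions 59676201 and 59904300, outside Ube3a and Snrpn. The bin chr5:15000001-16000000, with Cacna2d1, likewise stood at 2.77 and at 3 (2.81 to 3.19).

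Whole chromosomes differed by less than the bins within them. They ranged from 4.31 (4.29 to 4.33) on chromosome 4 to 4.61 (4.59 to 4.63) on chromosome 3. Leaving out windows with raised input moved chromosome 1 most, from 4.39 to 4.62, and chromosomes 1 and 3 then stood together at 4.62 and 4.63.

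Single windows ranged from no WT MeDIP reads to over 40-fold enrichment. Of 646822 windows with at least 20 reads over both WT libraries, 505903 (78.2%) had MeDIP at least 2-fold above input with an interval excluding equality, and 525 (0.0812%) at least 2-fold below. A window with the median input of 11 reads cannot pass below even with 0 MeDIP reads, where its upper limit is 1.6, so this count covers windows with much input, and 520 of the 525 had raised input. The counts above and below rest on scaling by library totals and on the listing by MeDIP reads. With TMM factors all listed windows stood at 1.12, and windows were not counted under that scaling. At least 10-fold enrichment was seen in 72844 windows (11.3%), and near gene starts in 8.08%, in protein-coding genes in 10.7% and outside genes in 12.1%. The highest window, chr5:83591101-83591200, lay outside genes with 142 MeDIP and 13 input reads, a ratio of 43.8 (24.8 to 84.2) at a CpG factor of 9. Next came windows in the pseudogene Gm4954 (131 and 12 reads) and in the long non-coding RNA gene Gm38512 (114 and 11 reads). At the other end 33 windows with at least 10 input reads had no WT MeDIP read and were listed through PLZFon MeDIP reads alone. Among them were 2 adjacent windows in Ankrd44, which may share reads, with 11 input reads each, and 1 in Etnk2 with 16. Their upper limits of the ratio were 1.6 and 1.04.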

How the data were processed

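MeDIP and input DNA of WT NKT cells was sequenced, 1 library each. The submitters' processing notes name BWA, edgeR and the mm10 build, without versions, and alignments were sorted and filtered to unique ones per the file headers. For every window of 100 bp the authors deposited raw read counts, RPKM values made from them, a relative methylation score and a CpG factor score. Their deposited log2 fold changes and p-values compare genotypes and were not used. The deposited table ends within chromosome 7. Regions beyond it were not analysed here.

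Library totals (15141449 and 60683037 reads) were recovered from counts over RPKM and were the scaling. Depth set the precision, about 10 reads per window, so single windows have wide intervals. Counts were summed with Python 3.11.15 and pandas 2.3.3, intervals were computed with scipy 1.17.1, and edgeR 4.0.16 and DESeq2 1.42.0 gave other scalings. The calling rules were also run on simulated counts that held counting error and planted changes only. Such counts lack the wider spread seen between bins, so they cannot test the calls against it. RefSeq gene positions and promoters (GRCm38.p6) were joined by position, and 8034 of 9572 protein-coding genes in range had a promoter. Named were the 5 bins and 10 loci at each end, the 3 windows at each end and, of each list, called members and the 2 highest and 2 lowest. The calls among T cell and NKT regulators are not reported here. Other members given were chosen after their values were seen. Loci named had at least 100 reads, and list members at least 20. The members and the gene lists were chosen with earlier results of these data known.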

Additional observations from a re-analysis of the deposited data

How the results depend on the processing

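No paired analysis was possible because each group has 1 library. No ratio changed its side of equality under the alternatives run, 29 of the values recomputed stayed within their interval or within 1.5 times the count, and 45 moved. The cause of these moves was not tested.

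The level of 4.44 became 6.41 with at least 10 PLZFon MeDIP reads, 5.84 with at least 10 WT MeDIP reads, 4.51 without raised input, 3.95 with at least 10 WT input reads, 1.12 with TMM factors, 1.11 with DESeq2 size factors and 4.01 as a median of windows. A CpG factor of 7 or more relative to 1 stood at 2, and at 1.87, 1.82, 2.07 and 2.28 under the first 4 of these and 2.02 over every 4th window. Gene bodies relative to intergenic windows (0.953) had 0.941, 0.957 and 0.901 for the PLZFon, WT MeDIP and WT input minimum and 0.967 with CpG factors standardised. Windows near starts (0.835) had 0.776, 0.821 and 0.798 for these minimums, 0.867 without raised input and 0.849 within 2000 bp.

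The spread between bins (0.18) was 0.19, 0.16 and 0.22 for these minimums, 0.16 without raised input and 0.16 after division by the level the CpG factors give. Bins above and below (49 and 34) were 19 and 21 with at least 10 WT MeDIP reads and 0 and 6 by a 1.5-fold rule. Those above were 124 with at least 10 WT input reads, beside 32 below, and 24 after the division for CpG factors, beside 26 below. Loci above and below (157 and 341) were 94 and 184 with at least 10 WT MeDIP reads, 17 and 51 by a 2-fold rule and 93 and 145 with at least 200 reads. Those below were 157, beside 121 above, with at least 10 PLZFon MeDIP reads and 533 with at least 50 reads. Windows above input (505903) were 85238 with at least 40 reads and 259955 with at least 10 PLZFon MeDIP reads, and those below (525) were 196 with the latter and 119 by a 4-fold rule. Genes with a listed CpG-rich promoter (96) were 49 with at least 10 WT MeDIP reads, a setting chosen after seeing the data.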

Other observations

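WT MeDIP reads showed a spacing along the chromosome that the input did not. For both libraries, pairs of listed windows without raised input were used. The Pearson correlation of MeDIP read numbers fell to 0.226 at a distance of 0.7 kb (229144 pairs) and rose to 0.389 at 1.2 kb. It fell to 0.195 at 2.4 kb, stood at 0.239 at 3.6 kb and at 0.277 at 5 kb, and was 0.0396 at 10 kb. In the WT input at the same distances it was 0.428, 0.409, 0.345, 0.337, 0.292 and 0.17, with no second rise of this kind. The rise at 1.2 kb was seen outside genes (0.183 at 0.7 kb, 0.398 at 1.2 kb) and in protein-coding genes (0.227 and 0.317). These pairs share 1 library and the selection of listed windows, so the correlations are descriptions.

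The first 5 Mb of listed DNA stood above the last 5 Mb on 6 of 7 chromosomes, but with overlapping intervals on chromosomes 3, 5 and 7. There the first and last stood at 4.81 and 4.68, at 4.94 and 4.84, and at 4.58 and 4.45. On chromosome 1 the first 5 Mb stood at 5.3 (5.14 to 5.46) and the last at 4.53 (4.43 to 4.63), and on chromosome 2 they stood at 4.52 (4.42 to 4.62) and 4.03 (3.94 to 4.11), while on chromosome 6 the last stood at 4.88 (4.78 to 4.98) and the first at 4.76 (4.65 to 4.86), with overlapping intervals. The last stretch on chromosome 7 is the end of the table, not of the chromosome.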
